A study of Rattus norvegicus with 30 samples.

Results

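The early response of the rat cochlea to an ototoxic drug sponge was measured 3 days after the sponge was placed, in ears of vehicle-treated and antioxidant-treated rats. All 18 samples collected at 3 days, of 30 in the series, were used, and they were chosen by their labelled time and treatment alone. The 9 samples with the sponge were set against the 9 without it, with the arm (vehicle or antioxidant) as a covariate. The animals were male Wistar rats 2 months old, 36 in all, of which 16 received vehicle and 20 received resveratrol plus N-acetylcysteine. On treatment day 2 one ear received a gelatin sponge near the round window, set through an opening in the middle ear bone and carrying 200 mg/ml kanamycin with 50 mg/ml furosemide. Contralateral ears were the controls of each arm. The 3-day samples were therefore taken 5 days after the first dose. The 4 groups are called control (vehicle arm, contralateral ear, labelled untreated, n = 3), ototoxic (vehicle arm, sponge, n = 4), antioxidant (resveratrol plus N-acetylcysteine, no sponge, n = 6) and antioxidant plus ototoxic (both, n = 5). No ear with a sponge free of drug was included in the comparison, so the drugs, the sponge and the surgery cannot be told apart. The labels do not tie an ear to an animal, and the p-values below measure the spread between these samples.

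Kanamycin is an aminoglycoside antibiotic. Aminoglycosides enter the sensory hair cells of the inner ear, largely through the mechanotransduction channels, and raise reactive oxygen species there before the cells die. Furosemide is a loop diuretic that acts on the stria vascularis, the epithelium that maintains the endocochlear potential, and is given with an aminoglycoside because the pair damages hair cells faster than either drug alone. Cells dispose of superoxide through superoxide dismutases and of peroxides through catalase, glutathione peroxidases and peroxiredoxins, and NADPH oxidases are a source of superoxide. N-acetylcysteine supplies cysteine for the synthesis of glutathione, and resveratrol is a plant polyphenol with antioxidant properties.

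RNA from cochleae was measured by quantitative PCR on a commercial rat plate for oxidative stress and antioxidant defence. The deposited value of a well is its threshold cycle (Ct), which falls by 1 for each doubling of template and stops at a ceiling of 40. Expression is given here as minus the difference between a well's Ct and the sample's mean Ct over 70 reference wells, which had target labels and stayed below 35 cycles in all 18 samples. It is a log2 scale on which 0 is the panel mean of that sample, so each difference below is relative to the panel. Whole cochleae were measured in bulk, and a change in the number of cells of a type cannot be told apart from a change in RNA per cell.

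The wells are named here by plate position, because the raw and the processed tables give the same position different gene labels. Rows matched by label had a rank correlation across 79 wells between -0.05 and 0.03 in the 18 samples, whereas rows matched by accession order reached 0.99 to 1.00. The choice matters for identity: well F12, labelled Sod1 in the raw table and Nox4 in the processed table, stood at 35 cycles or later in 18 of 18 samples, with a mean Ct of 39.58. Sod1 encodes the abundant cytosolic superoxide dismutase and Nox4 an NADPH oxidase. Well G04 had the lowest mean Ct of the plate, 14.75, and carries the label Tmod1 in the raw table and Mb, the oxygen store of striated muscle, in the processed table. Both labels are given for a well where it is first described, and neither is taken as its gene. For the same reason the hair cells and other cochlear cell types could not be checked against defining markers.

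Differences in the amount of template were first compared. Sponge samples had a mean Ct over the reference wells of 24.30 ± 0.55 (SD, n = 9), and the samples without a sponge had 24.33 ± 0.34 (SD, n = 9). The difference within arms was -0.08 cycles (exact two-sided permutation within arms, p = 0.651). Group means were 24.54 ± 0.33 in control (SD, n = 3), 24.71 ± 0.59 in ototoxic (SD, n = 4), 24.22 ± 0.32 in antioxidant (SD, n = 6) and 23.98 ± 0.22 in antioxidant plus ototoxic (SD, n = 5). Samples had 3.67 ± 1.32 wells at 35 cycles or later with the sponge and 3.22 ± 0.83 without it (SD, n = 9 each), a within-arm difference of 0.45 wells (exact two-sided permutation, p = 0.421).

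Several plate positions moved with the sponge when both arms were fitted together. Of 81 wells tested with limma across all wells, 7 passed a Benjamini-Hochberg adjusted p of 0.05, which is 8.64% of the wells. Wells C12, G09, C08 and B12 were higher with the sponge (4.94%) and wells D09, F02 and A03 were lower (3.7%). An unadjusted p under 0.05 was found for 16 wells (19.8%), 7 higher and 9 lower. In no well did the 9 samples with the sponge separate fully from the 9 without it. The split of 4 higher and 3 lower depends on the reference and on the values used. With the panel median it was 4 and 0, and with no reference 3 and 1. With the housekeeping-label wells it was 2 and 0 (4 and 4 once the late well H01 was left out of them). With the deposited delta Ct, which differs from the raw values by more than a reference, it was 2 and 0.

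Well G09 showed the smallest p of the plate. Its raw label is Ucp3, a mitochondrial carrier found mainly in skeletal muscle, and its processed label is Mpo, the myeloperoxidase of neutrophils. Control replicates 1 to 3 stood at -1.35, -1.55 and -1.86, and ototoxic replicates 2 to 5 at 0.80, 0.66, -1.48 and -0.50. Antioxidant samples ran from -1.63 to -0.33 around a median of -1.54, and antioxidant plus ototoxic replicates 2 to 6 stood at 0.30, 0.78, 0.91, 0.51 and 0.78. In the antioxidant arm all 5 sponge samples lay above all 6 others, while in the vehicle arm ototoxic replicate 4 lay among the controls. Means were 0.31 ± 0.80 (SD, n = 9) in sponge samples and -1.35 ± 0.49 (SD, n = 9) in the rest. The fitted difference was 1.72 log2 units (SE 0.28, 95% interval 1.12 to 2.31), a 3.29-fold higher level, with a limma adjusted p of 0.000956. An exact permutation of the sponge label within arms gave p = 0.00025, where the smallest possible is 0.00012.

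Well C12 rose by the largest amount of the wells that passed, and it was also the most variable of them. Its raw label is Mb, myoglobin, and its processed label is Park7, a redox-sensitive protein also called DJ-1. Control replicates 1 to 3 stood at -4.92, -5.10 and -5.58, and ototoxic replicates 2 to 5 at -2.04, -1.34, -5.92 and -2.36. Antioxidant samples ran from -5.83 to -3.58 around a median of -5.24, and antioxidant plus ototoxic replicates 2 to 6 stood at -2.47, -3.36, -3.66, -3.86 and -3.43. Of the 9 sponge samples 6 were above all 9 others, and ototoxic replicate 4 was below all 9. The fitted difference was 1.82 (SE 0.52, 95% interval 0.73 to 2.91), 3.53-fold, with a limma adjusted p of 0.0313 and an exact permutation p of 0.00767. Leaving out ototoxic replicate 4 raised it to 2.15 (limma adjusted p = 0.00205).

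The call for C12 depended on single samples in the other direction too. It was lost on leaving out control replicate 1, 2 or 3, ototoxic replicate 2 or 5, antioxidant replicate 1, 3 or 5, or antioxidant plus ototoxic replicate 2, and over those 9 fits the limma adjusted p reached at most 0.0902. Over all 18 single omissions the difference itself ranged from 1.61 to 2.15. With the replicate number as a block in the antioxidant arm, where numbers were taken to pair the samples, it was 1.72 (limma adjusted p = 0.0785). With a block in both arms it was 2.00 (limma adjusted p = 0.0269). Samples without a same-numbered partner add nothing to a blocked estimate, here or below. They are antioxidant replicate 1 in both fits, and control replicate 1 and ototoxic replicates 4 and 5 in the second. The value of 2.00 thus leaves out ototoxic replicate 4, the low sample.

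Well C08 was higher with the sponge when both arms were fitted together. Its estimate was 1.30 in each arm, and the difference between the arms was 0.01 with a wide 95% interval of -1.39 to 1.40. The raw label is Hbz, an embryonic globin, and the processed label is Gpx6, a glutathione peroxidase of olfactory tissue. In control replicates 1 to 3 the values were 0.93, 0.36 and 1.07, and ototoxic replicates 2 to 5 at 2.03, 1.97, 2.40 and 1.94, all above the controls. The antioxidant group ran from -0.12 to 1.98 around a median of 0.32, and antioxidant plus ototoxic replicates 2 to 6 stood at 1.09, 1.63, 1.43, 2.77 and 2.93. Antioxidant replicates 5 and 6, at 1.98 and 1.48, overlapped the sponge samples of their arm. In the fit the difference was 1.30 (SE 0.31, 95% interval 0.65 to 1.96), 2.46-fold, with a limma adjusted p of 0.0168 and an exact permutation p of 0.00155.

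Well B12 was a late well with a smaller difference. Gpx3, the glutathione peroxidase secreted into plasma, is its raw label, and Ppp1r15b, a regulatory subunit of protein phosphatase, is its processed label. Values in control replicates 1 to 3 were -6.01, -5.78 and -6.48, and ototoxic replicates 2 to 5 at -5.13, -5.10, -5.07 and -4.42. The antioxidant group ran from -6.27 to -5.36 around a median of -5.95, and antioxidant plus ototoxic replicates 2 to 6 stood at -5.56, -5.25, -5.14, -4.82 and -5.75. In all, 7 of 9 sponge samples were above all 9 others, and 9 of 9 were above the median of those without. In the fit the difference was 0.82 (SE 0.17, 95% interval 0.45 to 1.19), 1.76-fold, with a limma adjusted p of 0.0086 and an exact permutation p of 0.00031. Across the alternative settings it ranged from 0.30 to 1.11.

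**Figure D1:**
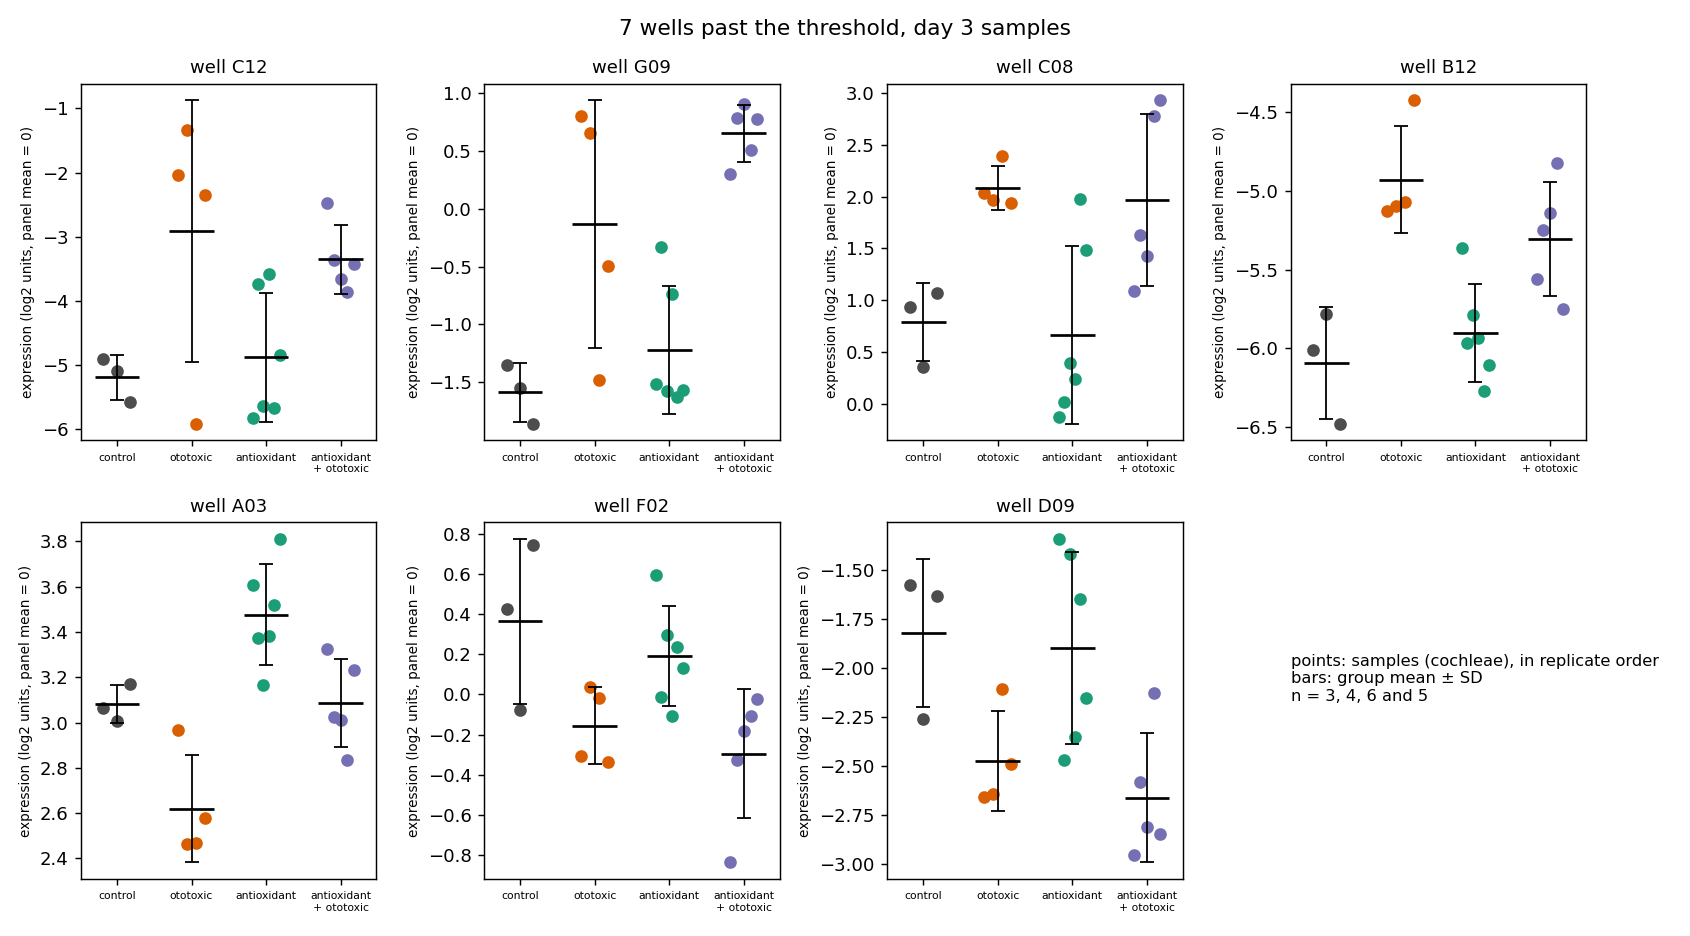
Expression of the 7 wells that passed the threshold, in log2 units with the panel mean of each sample at 0, by group. Points are samples in replicate order and bars are group means ± SD (n = 3, 4, 6 and 5). Wells C12, G09, C08 and B12 sit higher in the sponge groups and A03, F02 and D09 lower, and ototoxic replicate 4 lies with the samples without the sponge in C12 and G09.

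The 3 wells that were lower moved by less than 1 log2 unit. Well D09 is labelled Noxo1, an organiser subunit of NADPH oxidase, in the raw table and Fmo2, a flavin monooxygenase, in the processed table. Control replicates 1 to 3 stood at -1.57, -2.26 and -1.63, and ototoxic replicates 2 to 5 at -2.66, -2.64, -2.11 and -2.49. Antioxidant samples ran from -2.47 to -1.34 around a median of -1.90, and antioxidant plus ototoxic replicates 2 to 6 stood at -2.95, -2.58, -2.81, -2.13 and -2.85. In all, 7 of 9 sponge samples were below all 9 others. The fitted difference was -0.72 (SE 0.18, 95% interval -1.11 to -0.34), a level 0.606 times that without the sponge, with a limma adjusted p of 0.0197 and an exact permutation p of 0.00179. The call was lost without control replicate 1 (-0.69, limma adjusted p = 0.0518) or control replicate 3 (-0.70, limma adjusted p = 0.0507).

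Well F02 carries the labels Rag2, a subunit of the recombinase of lymphocyte receptor genes, and Xirp1, an actin-binding protein of striated muscle. Control replicates 1 to 3 stood at 0.43, -0.08 and 0.74, and ototoxic replicates 2 to 5 at -0.30, 0.04, -0.02 and -0.34. Antioxidant samples ran from -0.11 to 0.60 around a median of 0.18, and antioxidant plus ototoxic replicates 2 to 6 stood at -0.84, -0.33, -0.18, -0.11 and -0.02. Sponge and other samples overlapped at their edges, with 6 of 9 sponge samples below all 9 others. The fitted difference was -0.50 (SE 0.14, 95% interval -0.80 to -0.20), a 0.708-fold level, with a limma adjusted p of 0.0313 and an exact permutation p of 0.0013. Leaving out control replicate 1 or 3, ototoxic replicate 2 or 5, antioxidant replicate 1, 3 or 5, or antioxidant plus ototoxic replicate 2 or 3 ended the call, with differences from -0.50 to -0.42 and limma adjusted p up to 0.0921. With the replicate number as a block in the antioxidant arm the difference was -0.45 (limma adjusted p = 0.0476), and with a block in both arms -0.42 (limma adjusted p = 0.0612).

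Well A03 amplified earliest of the 7. It is labelled Apc, the scaffold that holds beta-catenin for degradation, in the raw table and Gpx7, a glutathione peroxidase of the endoplasmic reticulum, in the processed table. Control replicates 1 to 3 stood at 3.07, 3.01 and 3.17, and ototoxic replicates 2 to 5 at 2.97, 2.46, 2.47 and 2.58, all below the controls. Values of the antioxidant group ran from 3.17 to 3.81 around a median of 3.45, and antioxidant plus ototoxic replicates 2 to 6 stood at 3.33, 3.02, 3.01, 2.84 and 3.23. The antioxidant arm as a whole stood above the vehicle arm, so the pooled samples overlap more than the samples of either arm. The fitted difference was -0.42 (SE 0.11, 95% interval -0.65 to -0.18), a 0.749-fold level, with a limma adjusted p of 0.0248 and an exact permutation p of 0.00118. The call was lost without control replicate 1 (-0.42, limma adjusted p = 0.0518), control replicate 3 (-0.40, limma adjusted p = 0.0649) or ototoxic replicate 5 (-0.41, limma adjusted p = 0.0505). With the replicate number as a block it was -0.40 in the fit that blocked the antioxidant arm (limma adjusted p = 0.0268) and -0.37 in the fit that blocked both arms (limma adjusted p = 0.0787).

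Other wells had an unadjusted p under 0.05 without passing the adjusted threshold. Well B03 (raw label Ehd2) differed by -0.53 (95% interval -0.90 to -0.16, limma adjusted p = 0.0590). Well E11 (raw label Psmb5, a proteasome subunit, processed label Cygb, cytoglobin) differed by -0.70 (95% interval -1.20 to -0.19, limma adjusted p = 0.0708). In each of them 8 of 9 sponge samples were below the median of the samples without it, and sponge and other samples overlapped in both arms. That count was not particular to B03 and E11, which were picked by their p in the same data. Wells E03, E04, F11, C05, B02 and B07, not among those with an unadjusted p under 0.05, also had 8 of 9 below. The count therefore adds no support for B03 or E11. Both B03 and E11 passed with the replicate number as a block in the antioxidant arm, B03 at -0.46 (limma adjusted p = 0.0164) and E11 at -0.64 (limma adjusted p = 0.0137). They also passed with a block in both arms, B03 at -0.54 (limma adjusted p = 0.0179) and E11 at -0.72 (limma adjusted p = 0.00505). The numbers were not taken to pair samples in the vehicle arm, so the fit with a block in both arms is an alternative setting only. Wells E08 (0.53), D08 (0.68) and B05 (0.32) had higher values with the sponge, and E01 (-0.30) and G02 (-0.39) lower ones. With a block in both arms D08 passed at 0.87 (limma adjusted p = 0.0279), and with a block in the antioxidant arm it did not, at 0.72 (limma adjusted p = 0.136).

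**Figure D2:**
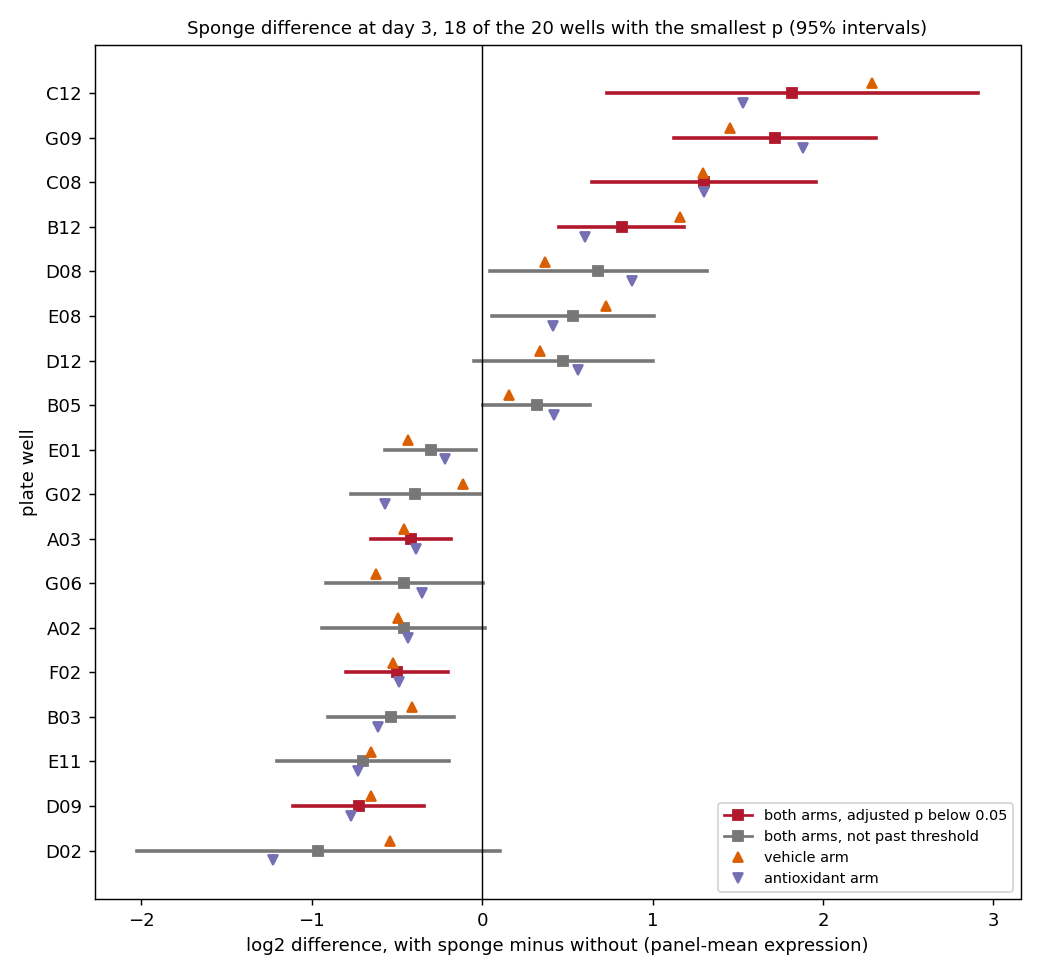
Sponge difference in log2 units (with minus without) for 18 of the 20 wells with the smallest p, as squares with 95% intervals from the both-arm fit, with the estimates of each arm as triangles. The intervals of the 7 wells that passed, from C12 at 1.82 to D09 at -0.72, exclude 0. The vehicle and antioxidant triangles lie on the same side of 0 for every well drawn. These wells were chosen by the fit that pools both arms, which favours shared signs, and over all tested wells 55 of 81 shared their sign.

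The sponge comparison was then made in each arm alone, using the spread of all 4 groups. In the vehicle arm 1 of 81 wells passed, 1.23%: B12 was higher by 1.16 (limma adjusted p = 0.0416), and 10 wells (12.3%) had an unadjusted p under 0.05. That call rested on many samples. It was lost on leaving out control replicate 1 or 3, ototoxic replicate 2 or 5, antioxidant replicate 2, 3, 4 or 6, or antioxidant plus ototoxic replicate 2, 3 or 4. Over the 18 omissions the difference ranged from 0.97 to 1.32 and the limma adjusted p from 0.0245 to 0.208. The other 6 wells of the both-arm fit had vehicle-arm values of 2.28 for C12, 1.46 for G09, 1.30 for C08, -0.65 for D09, -0.52 for F02 and -0.46 for A03. All ototoxic samples lay above all controls in 2 of 81 wells and below them in 8 of 81. Groups of 3 and 4 samples can separate by chance, so these counts are descriptions only.

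In the antioxidant arm 1 of 81 wells passed, again 1.23%: G09 was higher by 1.88 (limma adjusted p = 0.00768), and 16 wells (19.8%) had an unadjusted p under 0.05. It passed in each of the 18 fits that left out 1 sample, with differences of 1.80 to 2.06. The replicate numbers of this arm were taken to pair the samples, from the data and not from the labels. With the number as a fixed block in both arms 3 wells passed. They were G09 at 1.82 and C08 at 1.15 (limma adjusted p = 0.00885 for both) and E11 at -0.63 (limma adjusted p = 0.0445). With the block in the antioxidant arm alone the estimates were the same and 1 well passed, C08 (limma adjusted p = 0.00236), while G09 (limma adjusted p = 0.0545) and E11 (limma adjusted p = 0.0978) did not. With the number as a random block 11 wells passed. Without a block the values were 1.53 for C12, 1.30 for C08, 0.60 for B12, -0.77 for D09, -0.49 for F02 and -0.39 for A03. Full separation of the samples in this arm occurred for 1 of 81 wells above and 1 of 81 below.

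No well passed the test of whether its sponge difference itself differed between the arms. The interaction passed in 0 of 81 wells with limma, and 0 wells had an unadjusted p under 0.05. Differences of moderate size could not be seen at this precision: the median 95% half-width was 1.00 log2 unit for the interaction, against 0.48 for the both-arm difference, 0.78 in the vehicle arm and 0.62 in the antioxidant arm. For G09 the antioxidant arm minus the vehicle arm was 0.42 (95% interval -0.82 to 1.67), and for B12 it was -0.56 (95% interval -1.29 to 0.16). The smallest p of the interaction belonged to E12, a late well labelled Ptgs1, a cyclooxygenase, in the raw table and Nos2, the inducible nitric oxide synthase, in the processed table, at -4.30 (95% interval -8.67 to 0.07, limma adjusted p = 0.951). Antioxidant plus ototoxic replicates 2 and 3 stood at the 40-cycle ceiling there, and 4 of 18 samples were at 35 or later. Wells C04 (-1.15) and B09 (0.49) followed with the same adjusted p.

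Signs were shared by the arms in 55 of 81 wells, 23 higher in both and 32 lower in both. Among the 74 wells below 35 cycles in all samples, the sponge differences of the arms correlated with a Pearson r of 0.63 and a Spearman rho of 0.53. This is a description across wells of 1 plate design, which are not independent. With all 81 wells included, the Pearson r was 0.19 and the Spearman rho 0.39.

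**Figure D3:**
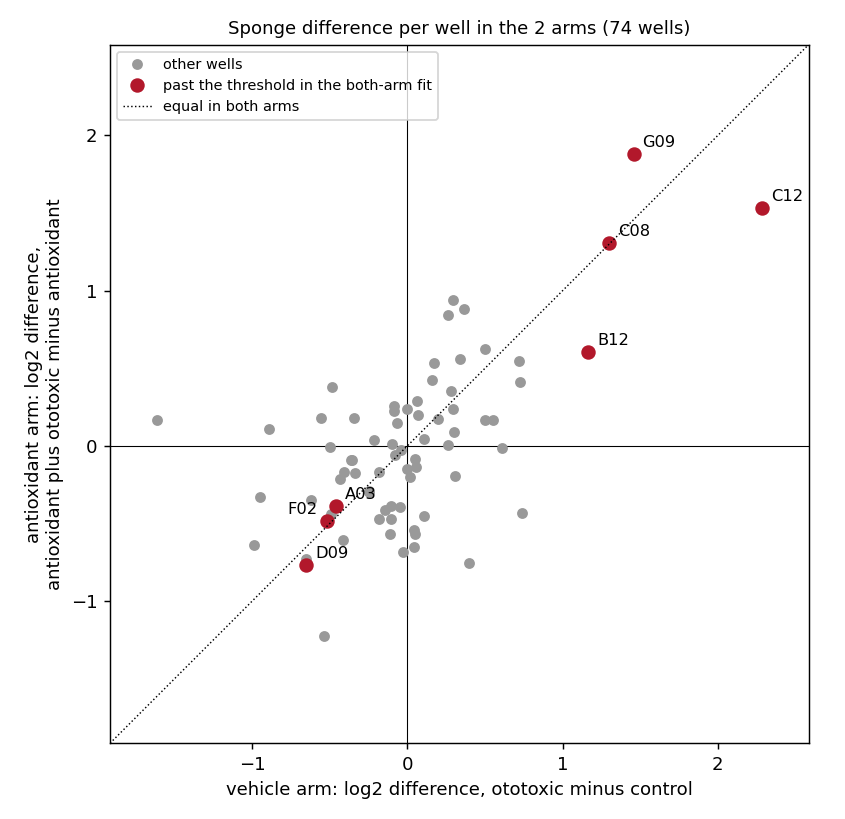
Sponge difference per well in the vehicle arm (ototoxic minus control, horizontal) against the antioxidant arm (antioxidant plus ototoxic minus antioxidant, vertical), in log2 units, for the 74 wells below 35 cycles in all 18 samples. The dotted line marks equal differences, and the 7 red wells that passed in the both-arm fit lie in the lower left and upper right quadrants. That fit pools both arms and so favours wells with shared signs. Of the 74 wells drawn, 52 shared their sign.

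Within groups, some of the 7 wells varied together from sample to sample. Each sample's deviation from its group mean was correlated over the 18 samples for all 21 pairs of these wells, with 100000 permutations. The permutations ran freely over the 18 samples, although deviations in a group are tied by its mean and spreads differ by group. For C12 the SD was 2.05 in ototoxic and 0.35 in control. The p-values may therefore be too small. Pairs among the other wells were not tested, so no share over the plate can be given. C12 and G09 gave a Pearson r of 0.82 (permutation p = 6e-05, adjusted 0.00126) and a Spearman rho of 0.61 (adjusted permutation p = 0.0541). Ototoxic replicate 4 was low in both wells, and antioxidant replicates 2 and 4 were high in both. Without the 2 samples farthest from the median of the first well, r was 0.63. C12 and D09 ran opposite ways, with r = -0.69 (adjusted permutation p = 0.0084), rho = -0.80 (adjusted permutation p = 0.00252) and r = -0.79 without 2 samples. D09 and F02 varied together, with r = 0.68 (adjusted permutation p = 0.0146), rho = 0.70 (adjusted permutation p = 0.0187) and r = 0.60 without 2 samples. All wells of a sample share the panel mean that was subtracted.

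**Figure D4:**
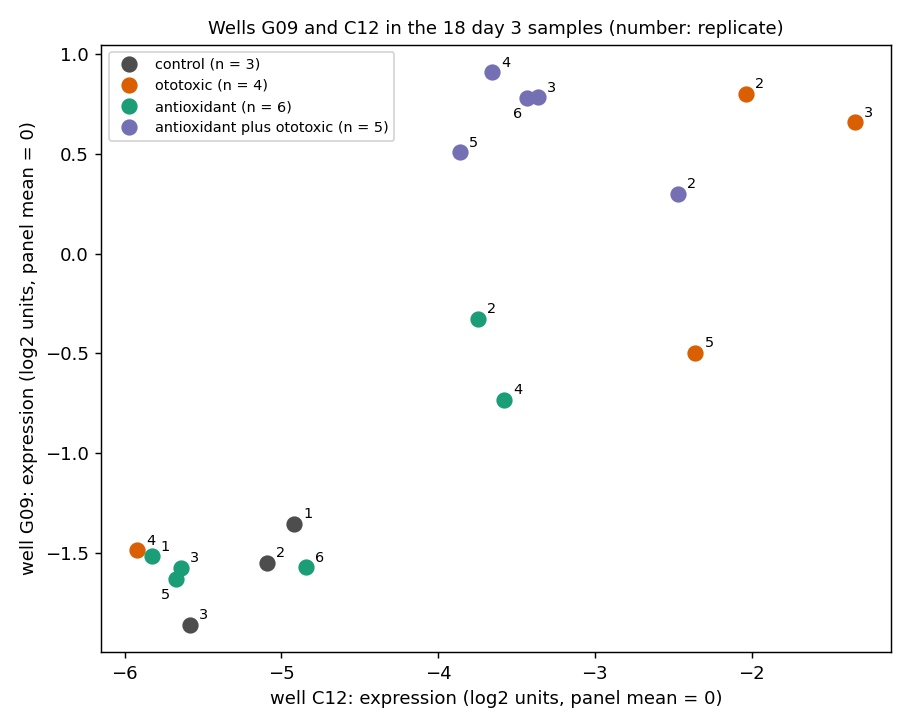
Expression of well G09 against well C12 in the 18 samples, in log2 units with the panel mean at 0, coloured by group and marked with the replicate number. The other 8 sponge samples lie toward the upper right of ototoxic replicate 4, which lies among the samples without the sponge at the lower left, and antioxidant replicates 2 and 4 lie between them.

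Wells G09 and C08 passed under every reference and with the deposited delta Ct, and the calls of the other 5 wells changed across these settings. The deposited values differ from the raw ones by more than a reference, because the shift was not equal across wells. In control replicate 1, A03 stood at 3.07 with the panel mean and 3.81 as deposited, and B12 at -6.01 and -4.39. With the mean of the 5 wells that carry housekeeping labels in the raw table, or with the delta Ct values that the authors deposited, the wells that passed were G09 and C08. The deposited values gave 1.70 for G09 (limma adjusted p = 0.0029), 1.39 for C08 (limma adjusted p = 0.0067), 1.21 for C12, 0.30 for B12, -0.79 for D09 and -0.11 for A03. In the deposited values wells F02 and F06 sum to 0 in 18 of 18 samples, so these values are centred on that pair, and F02 cannot be judged by them. Over all tested wells the median difference was -0.07 with the panel mean, 0.04 with the panel median, 0.02 with no reference, 0.11 with the deposited values and 0.23 with the housekeeping-label wells. One late housekeeping-label well, H01 (raw label Rplp1, a ribosomal protein), had a mean Ct of 33.04 and stood at the ceiling of 40 in ototoxic replicate 5, where the mean of the 5 wells was 28.6 against at most 27.4 in the other samples. Without H01 in that reference the median over all wells was -0.01 and 8 wells passed, 5 of them among the 7. The lower wells were then at -0.67 for D09 (limma adjusted p = 0.00698), -0.44 for F02 (limma adjusted p = 0.0737) and -0.36 for A03 (limma adjusted p = 0.328). In the both-arm fit G09 passed in 36 of 36 alternative settings (1.62 to 2.03), C08 in 35 of 36, B12 in 33 of 35, D09 in 30 of 36, A03 in 24 of 36 and C12 in 21 of 35. F02 passed in 19 of the 35 that do not use the deposited values.

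**Figure D5:**
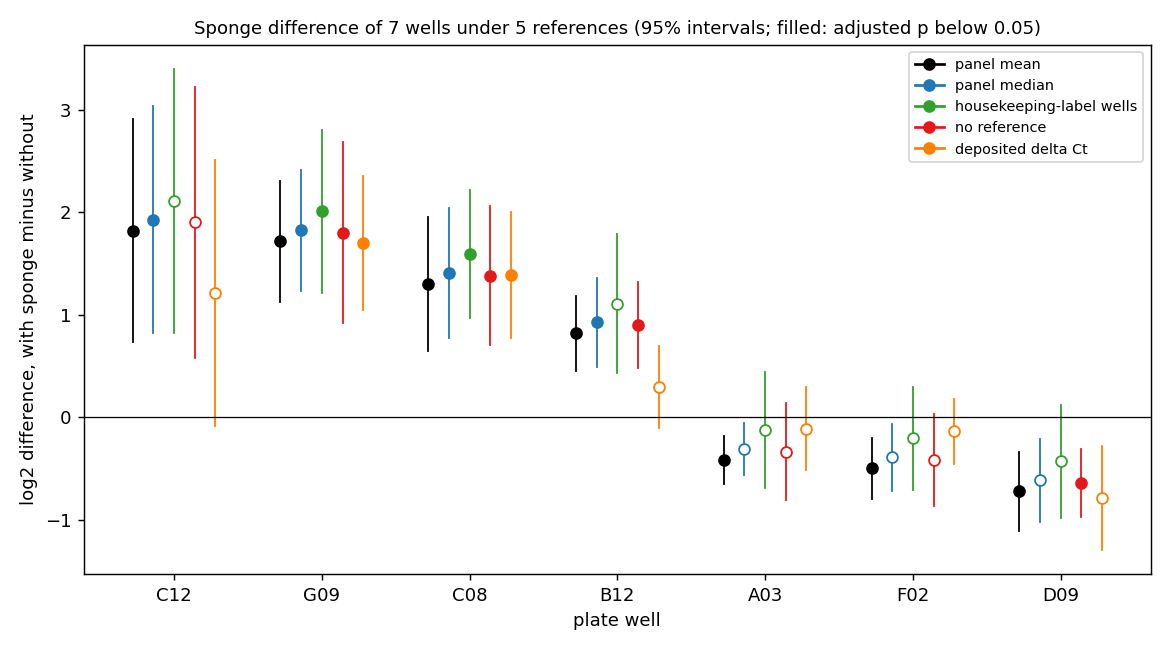
Sponge difference in log2 units with 95% intervals for the 7 wells under 5 settings: panel mean, panel median, housekeeping-label wells, no reference and the deposited delta Ct. The deposited delta Ct differs from the raw values by more than a reference. Filled points passed an adjusted p of 0.05. G09 and C08 are filled under all 5 settings, while F02 and A03 are filled under the panel mean alone. The deposited values are centred on F02 and F06, so the deposited point of F02 is measured partly against itself.

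Wells were also grouped by the gene families their labels name, once with the raw and once with the processed labels, as descriptions of the wells that carry those labels. Under the raw labels 2 of 4 oxygen-carrier wells were higher (C08 and C12), with a median difference of 0.74 beside -0.07 over all 81 wells, of which 4 were higher and 3 lower. The 4 oxygen-carrier wells ranged from 0.04 to 1.82, so their median does not show a shift of the whole list. Among the 8 glutathione peroxidase wells 1 was higher (B12) and the median was -0.13. Among the 6 NADPH and dual oxidase wells 1 was lower (D09) and the median was -0.26. No peroxiredoxin well (6 tested, median 0.32), thioredoxin or glutathione recycling well (5, -0.30), superoxide dismutase or catalase well (4, -0.13), DNA repair well (4, -0.10) or housekeeping well (5, -0.17) passed.

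The processed labels gave another picture of the same plate. Glutathione peroxidase labels then covered 1 higher well (C08) and 1 lower well (A03) of 8, with a median of -0.22. Oxygen-carrier labels covered 4 wells, none of which passed, with a median of -0.22. The peroxiredoxin (5 wells, 0.15), thioredoxin and glutathione recycling (6, -0.09), superoxide dismutase and catalase (5, 0.04), NADPH and dual oxidase (5, 0.01) and DNA repair (4, -0.31) wells held none that passed. The family a change is assigned to therefore differs with the table. A glutathione peroxidase label occurs among the higher wells in both, but on different wells, B12 under the raw labels and C08 under the processed ones.

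Labels listed beforehand for muscle or for blood and leukocytes were read in the same way, since a dissected cochlea can carry either. The muscle list held Mb, Xirp1, Tmod1, Ucp3 and Vim. Some listed labels are not particular to these cells, such as Vim for muscle and Lpo for blood and leukocytes. Under the raw labels 2 of 5 muscle wells were higher (C12 and G09, median of the list 0.15), and 1 of 5 blood and leukocyte wells was higher (C08, median -0.24). Under the processed labels 1 of 4 muscle wells was lower (F02, median -0.11) and 1 of 5 blood and leukocyte wells was higher (G09, median -0.20). The summed muscle level, on the log2 scale, ran from 8.55 to 10.2 with the sponge and from 8.87 to 10.2 without it under the raw labels. Under the processed labels it ran from 8.55 to 10.2 and from 8.89 to 10.2. Well G04 is in the muscle list under both tables, and alone ran from 8.42 to 10.1 with the sponge and from 8.81 to 10.2 without it. It makes up most of both muscle sums, so their likeness was set by this well and they cannot show a change of C12 or G09. For blood and leukocyte labels the sum ran from 1.57 to 3.11 with the sponge and from 0.88 to 2.34 without it under the raw labels, with medians of 2.23 and 1.26. Under the processed labels it ran from 2.67 to 3.30 and from 2.74 to 3.49, with medians of 3.10 and 3.29. C08, already among the wells that passed, had the lowest mean Ct of the raw-label blood and leukocyte wells and weighs most in that sum. Of the processed-label blood and leukocyte wells G02, with the processed label Lpo, had the lowest mean Ct, 22.06. It weighs most in the processed-label sum and differed by -0.39, whereas G09 of the same list differed by 1.72. The part of other cells in the result was not tested.

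How small a difference could be seen depended on how early a well amplified. The median standard error of the sponge difference was 0.19 log2 units in the 34 wells with a mean Ct below 24, 0.24 in the 35 wells from 24 to under 28, and 0.55 in the 12 wells at 28 or later. Of the 7 wells that passed, C12 and B12 belong to the latest class. Each well was measured once per sample in the deposited tables, so the error of the PCR itself is not separated from the spread between cochleae.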

How the data were processed

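Cochlear RNA of 18 samples taken at 3 days was measured on an RT2 profiler PCR array for rat oxidative stress and antioxidant defence (Applied Biosystems 7900HT, per the labels' protocols). The deposited raw table holds threshold cycles, an inverse log2 scale. In the other table the authors deposited delta Ct, also log2, and there wells F02 and F06 sum to 0 in 18 of 18 samples, so the values are centred on this pair; the authors' reason was not given in the sources used here. The raw table has 84 wells, 5 with housekeeping labels, and the processed table has 79 rows. The accessions of 77 wells matched a GRCr8 gene table. Processed rows were matched to plate wells by accession order. In the tables, 2 sample columns matched no labelled sample and were not used.

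Expression was minus the difference between Ct and the sample mean over 70 target wells below 35 in all 18 samples. Wells entered the test if 1 or more of the 4 groups had all its samples below 35, which held for 81 wells, and the other 3 were not tested. Differences were fitted with limma 3.58.1 in R 4.3.3 (lmFit, eBayes), adjusted by the Benjamini-Hochberg method over all tested wells at 0.05, with arm as covariate for both arms and with 4 group means for single arms and the interaction. The fit was tested on simulated data. Permutations ran in Python 3.11.15 with numpy 2.4.6: 16170 exact relabelings of the sponge within arms, two-sided.

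Deviations of same-numbered samples from their group means correlated over 70 wells at 0.74, 0.23, 0.72, 0.58 and 0.34 in the antioxidant arm (numbers 2 to 6) and at 0.28 and -0.35 in the vehicle arm (numbers 2 and 3). The numbers were therefore taken to pair samples in the antioxidant arm only, from the data and not from the labels. A fixed block within arms leaves samples without a same-numbered partner out of the estimate. These were antioxidant replicate 1 and, with a block in both arms, also control replicate 1 and ototoxic replicates 4 and 5.

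Wells described are those that passed in any fit, the smallest p in the both-arm fit up to 20 in all, the 3 smallest p in each other fit, and members of the gene lists; wells F12, G04 and E07 were chosen after their values were seen. The samples, members and lists were chosen with earlier results of these data known. Alternatives covered the reference, the Ct filter, the ceiling, the empirical Bayes step, the block and leaving out each sample. Of the 20 wells with the smallest p, 2 that did not pass in the both-arm fit are not reported here, nor are other results for them.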

Additional observations from a re-analysis of the deposited data

Results flagged for a closer look

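Of 66 sets of samples searched, 3 held a sample apart from the rest of its group, and chance marks about 1 in 20 such sets. Well B12 in ototoxic replicate 5 stood at -4.42 with its nearest neighbour at -5.07, a gap that took up 0.914 of the range of the group. Well G06 in antioxidant plus ototoxic replicate 5 stood at -0.83 with its neighbour at -1.65, a gap of 0.731 of the range. Well D12 in antioxidant replicate 3 stood at -2.91 with its neighbour at -3.85, a gap of 0.664 of the range. A sample that was not flagged can still lie far from its group. Well C12 in ototoxic replicate 4 stood at -5.92 with its nearest neighbour at -2.36 and was not among the 3.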

How the results depend on the processing

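In the both-arm fit 7 wells passed. The count was 2 with the deposited delta Ct, 2 with the housekeeping-label reference, 4 with the panel median, 4 with no reference, 4 with the replicate block over both arms, 16 with a random replicate block and 3 without the 3 samples of highest mean raw Ct, an alternative added after the data were seen. The replicate block within arms gave 8, of which 5 were among the 7 (A03 and F02 lost, B03, D08 and E11 gained). Also added after the data were seen, the block in the antioxidant arm only gave 9, of which 6 were among the 7, and the housekeeping-label reference without H01 gave 8, of which 5 were. Leaving out 1 sample gave 3 to 11 wells, with 3 without control replicate 1 or 3, 4 without ototoxic replicate 5 and 11 without antioxidant replicate 2. In the vehicle arm the count of 1 became 0 with limma under the deposited delta Ct, the housekeeping-label reference, the panel median, no reference, the filter below 30 cycles, the intensity trend, the replicate block over both arms, the fit of 2 groups alone and the housekeeping-label reference without H01, with 6 to 10 wells at an unadjusted p under 0.05. It became 4 with the replicate block within arms, 4 with the random replicate block, 2 with the block in the antioxidant arm only and 2 without the 3 samples of highest mean raw Ct, and ranged from 0 to 3 on leaving out 1 sample. In the antioxidant arm the count of 1 became 2 with the housekeeping-label reference, 0 with no reference (7 wells at an unadjusted p under 0.05), 3 with the replicate block within arms, 0 with the block over both arms (13 wells) and 11 with the random replicate block, and ranged from 1 to 2 on leaving out 1 sample. The interaction stayed at 0 on leaving out each sample. The within-arm difference in mean raw Ct ranged from -0.16 to -0.01 on leaving out 1 sample, and that in late wells from 0.12 to 0.70. In the vehicle arm numbers do not pair samples by the rule used, and own numbers correlated best in 1 of 2 cases there and 4 of 5 in the antioxidant arm. Signs reversed for H01 under the deposited delta Ct (0.080 against -1.23), for H05 under it (0.0663) and under the housekeeping-label reference (0.12 against -0.17), and for H02 with the replicate block within arms (-0.090) and over both arms (-0.0756 against 0.17). The interaction of B12 was 0.013 with the deposited values. That of G09 was -0.61 with the block within arms and -0.55 without the 3 samples of highest mean raw Ct. It was -0.028 without ototoxic replicate 4 (lowest of the single omissions, the highest being 0.73 without ototoxic replicate 2). In each fit where the sign of G09 turned, ototoxic replicate 4 did not enter the vehicle-arm estimate. The cause was not tested. Of the single-well results under the alternatives, 1521 kept their direction and side of the threshold, 65 newly passed, 76 no longer passed and 9 reversed. Late wells limit what could be seen.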

Other observations

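Well E07, labelled Prdx4, a peroxiredoxin of the endoplasmic reticulum, in the raw table and Gpx8 in the processed table, was at the 40-cycle ceiling in control replicate 1 and below 35 cycles in the other 17 samples. Its expression was -15.08 in control replicate 1, and 2.56 and 2.68 in control replicates 2 and 3. The both-arm difference of this well, 1.77 (95% interval -2.11 to 5.64), contains that sample.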
